A study of Mus musculus with 6 samples.

Results

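The immunoglobulin kappa V segments are the 100 genes that the GENCODE M21 annotation of the mouse types as functional immunoglobulin V genes and whose symbols begin with Igkv, out of 54532 genes listed in every library. All 100 were found in the deposited expression values. They were followed in 6 RNA-seq libraries from C57BL/6 mice, 1 library for each condition, so that no difference between conditions has a replicate check and no p-value is given. The 4 macrophage conditions were as follows. WT mice carried no leukemia and received PBS, WT/FE mice carried no leukemia and received iron dextran, MA9 mice carried MLL-AF9 leukemia and received PBS, and MA9/FE mice carried the same leukemia and received iron dextran. The other 2 libraries are leukemia cells from the bone marrow (BM) of MA9 and MA9/FE mice. Per the labels the macrophages were spleen cells, per the study's methods they came from the BM, and the sources do not resolve which holds. The methods state that mice were 6 to 8 weeks old, that the leukemia came from c-kit+ BM cells infected with a retrovirus carrying MLL-AF9 and GFP and was passed on by transplanting GFP+ cells, and that iron dextran was given i.p. as 0.2 mL of 25 mg/mL every other day, 6 times. Macrophages were gated as GFP- Gr-1lo F4/80+ CD115int SSCint/lo. The number of mice behind each library is not given in the sources used here.

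An immunoglobulin kappa light chain is assembled in a developing B cell by joining one of many V segments (Igkv) to one of a few J segments (Igkj) upstream of a single constant gene, Igkc. Each B cell clone, and each plasma cell derived from it, transcribes mainly the V segment it joined, so the make-up of Igkv RNA in a sample mirrors which clones it holds and how much immunoglobulin RNA each makes. Some Igkv genes lie in the same orientation as the J segments and are joined by deletion of the DNA between them, while others lie in the opposite orientation and are joined by inversion. Kappa transcripts are a hallmark of the B cell lineage, and plasma cells hold them at the highest levels.

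Every segment has 2 exons, a leader exon and a V exon that codes for the variable domain up to the start of the third complementarity-determining region (CDR3), the loop in which clones using the same V segment differ. The V exons were 293 to 322 bases long with a median of 303. Printed here 5′ to 3′ on the coding strand are the V exons of the 5 segments that led at least 1 library, of Igkv1-135 and Igkv1-117 the last 300 bases, taken from the GENCODE M21 transcripts (GRCm38, the assembly also called mm10). Capitals mark the germline part of the CDR3, from the codon of the conserved cysteine that opens it to the end of the V exon. Igkv1-135 led the WT macrophages, Igkv5-39 the WT/FE macrophages, Igkv1-117 both libraries of macrophages from leukemic mice, Igkv15-103 the MA9 leukemia cells and Igkv14-126 the MA9/FE leukemia cells.
Igkv1-135 (chr6:67610209-67610508, plus strand): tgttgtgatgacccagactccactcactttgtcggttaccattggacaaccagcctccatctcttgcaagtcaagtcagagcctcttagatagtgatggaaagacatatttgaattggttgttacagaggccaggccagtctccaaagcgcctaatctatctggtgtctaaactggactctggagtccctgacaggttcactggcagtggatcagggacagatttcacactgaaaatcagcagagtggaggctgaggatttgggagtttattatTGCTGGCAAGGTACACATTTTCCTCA
Igkv5-39 (chr6:69900424-69900721, minus strand): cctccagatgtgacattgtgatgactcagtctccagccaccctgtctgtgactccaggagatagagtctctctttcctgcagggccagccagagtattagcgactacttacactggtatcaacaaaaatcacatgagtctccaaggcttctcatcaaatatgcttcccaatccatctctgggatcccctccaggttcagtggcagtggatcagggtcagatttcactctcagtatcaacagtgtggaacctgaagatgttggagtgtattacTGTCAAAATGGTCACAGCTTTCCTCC
Igkv1-117 (chr6:68121528-68121827, plus strand): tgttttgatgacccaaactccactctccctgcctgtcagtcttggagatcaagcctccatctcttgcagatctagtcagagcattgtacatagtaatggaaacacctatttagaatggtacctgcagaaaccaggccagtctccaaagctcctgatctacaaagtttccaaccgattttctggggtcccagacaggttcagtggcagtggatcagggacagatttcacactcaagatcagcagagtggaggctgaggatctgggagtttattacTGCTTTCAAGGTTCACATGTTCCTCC
Igkv15-103 (chr6:68437628-68437925, plus strand): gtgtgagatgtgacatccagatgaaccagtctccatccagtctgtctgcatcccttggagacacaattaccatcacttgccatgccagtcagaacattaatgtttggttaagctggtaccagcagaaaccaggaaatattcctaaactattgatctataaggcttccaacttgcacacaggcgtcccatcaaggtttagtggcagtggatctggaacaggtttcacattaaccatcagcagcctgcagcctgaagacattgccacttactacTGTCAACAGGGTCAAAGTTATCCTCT
Igkv14-126 (chr6:67896345-67896642, plus strand): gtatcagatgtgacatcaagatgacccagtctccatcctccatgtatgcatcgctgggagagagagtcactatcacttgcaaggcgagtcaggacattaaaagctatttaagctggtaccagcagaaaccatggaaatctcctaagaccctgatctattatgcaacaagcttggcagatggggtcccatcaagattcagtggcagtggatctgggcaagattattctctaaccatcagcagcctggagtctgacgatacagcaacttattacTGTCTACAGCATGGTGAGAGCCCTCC

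All 5 germline CDR3 parts were 26 bases long. Igkv1-135 and Igkv1-117 belong to one family and were 80.3% identical over the V exon. Igkv14-126 and Igkv15-103, the leaders of the leukemia libraries, were 76.3% identical. The other 8 pairs among the 5 segments were between 63.1% and 71.3% identical, so these leaders are easily told apart from each other in sequence. This does not hold for their own relatives. The closest relative was 96.8% identical for Igkv1-117 and 96.5% for Igkv1-135. It was 91.7% for Igkv5-39, 91.0% for Igkv14-126 and 76.3% for Igkv15-103.

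The last bases of the 9 further segments that ranked among the 10 highest of at least 2 macrophage libraries are shown for comparison, again with the germline CDR3 part in capitals after the last 12 bases before it.
Igkv17-127: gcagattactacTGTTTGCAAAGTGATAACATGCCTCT
Igkv10-96: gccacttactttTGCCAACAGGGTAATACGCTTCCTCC
Igkv19-93: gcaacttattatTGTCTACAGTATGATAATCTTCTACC
Igkv8-30: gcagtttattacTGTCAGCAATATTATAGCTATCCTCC
Igkv6-23: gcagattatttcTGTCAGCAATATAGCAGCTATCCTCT
Igkv6-17: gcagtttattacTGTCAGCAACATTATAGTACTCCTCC
Igkv6-15: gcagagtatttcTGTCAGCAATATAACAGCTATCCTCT
Igkv3-4: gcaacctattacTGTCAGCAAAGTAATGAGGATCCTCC
Igkv3-2: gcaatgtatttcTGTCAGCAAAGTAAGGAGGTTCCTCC

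Over all 100 segments, 67 had a germline CDR3 part of 26 bases and 21 had one of 28 bases. The 26-base group took 77.2% to 82.1% of Igkv usage in the macrophage libraries, where usage is a segment's FPKM as a percent of the summed FPKM of all 100 segments. FPKM scales the fragments of a gene by its exon length and the size of the library, and it is the unit used for every comparison between genes. The 28-base group took 9.32% to 14.3%. The letters CCTCC closed the V exon of 42 segments, and these took 49.1% of usage in the WT, 54.8% in the WT/FE, 53.3% in the MA9 and 59.1% in the MA9/FE macrophages.

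Not every segment can be told from its relatives. The closest relative of a segment was 94.3% identical at the median, and 44 segments shared at least 1 stretch of 100 bases with another Igkv gene or pseudogene. There were 6 pairs at least 97% identical, and single values for their 12 members are uncertain. These pairs were Igkv5-45 and Igkv5-43, Igkv6-29 and Igkv6-20, Igkv3-10 and Igkv3-5, Igkv17-127 and Igkv17-121, Igkv8-26 and Igkv8-18, and Igkv8-28 and Igkv8-19.

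Igkv RNA was abundant in all 4 macrophage libraries and nearly absent from the leukemia cells. Summed over the segments it was 8041 FPKM in the WT, 9537 in the WT/FE, 18249 in the MA9 and 21477 in the MA9/FE macrophages, against 40.4 FPKM in the MA9 and 52.9 FPKM in the MA9/FE leukemia cells. Both libraries of macrophages from leukemic mice lay above both libraries from mice without leukemia, and the ratio of the sums was 2.27 without iron and 2.25 with iron. The ratio with iron over without iron was 1.19 in mice without leukemia and 1.18 in leukemic mice. In recovered reads, the whole numbers of reads that the FPKM values step in, the segments held 58358 reads (0.299% of the library) in the WT, 59214 (0.352%) in the WT/FE, 114988 (0.676%) in the MA9 and 128079 (0.796%) in the MA9/FE macrophages. The leukemia libraries held 271 reads (0.00149%) and 348 reads (0.00195%). As a share of all FPKM, the segments took 1.96% in the WT, 2.58% in the WT/FE, 4.66% in the MA9 and 4.04% in the MA9/FE macrophages. The last pair is in the reverse of its order in reads, and a single gene of 57 bases, Gm23935, took 6.22% of all FPKM in the MA9 and 17.5% in the MA9/FE macrophages. The 6 libraries held between 16085346 and 19518359 reads each over all genes, so the contrast was between libraries of like depth.

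Igkc, the kappa constant gene, followed the same order. It stood at 8693 FPKM in the WT, 9719 in the WT/FE, 18564 in the MA9 and 26598 in the MA9/FE macrophages, and at 43.2 and 59.3 FPKM in the MA9 and MA9/FE leukemia cells. The summed Igkv level was therefore close to that of Igkc, with an Igkv to Igkc ratio between 0.807 in the MA9/FE macrophages and 0.983 in the MA9 macrophages. Kappa was the major light chain in each library. Its share of the light chain constant FPKM, with Iglc1, Iglc2 and Iglc3 as the lambda part, was lowest in the WT macrophages at 77.8% and was 84.3% in the WT/FE, 89.8% in the MA9 and 86.9% in the MA9/FE macrophages. The leukemia cells had 90.1% and 90.0%.

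Among the 4 macrophage libraries, the marker lists of plasma cells, red cells and neutrophils summed higher in both from leukemic mice, as Igkv did. The lists of B cells and T cells did not. The 13 B cell markers, which include Ms4a1 and Cd79a, were all above 0 in each of the 6 libraries, with summed FPKM of 2476 in the WT, 2330 in the WT/FE, 1373 in the MA9 and 2453 in the MA9/FE macrophages. The 12 plasma cell markers, which include Jchain, the joining chain of secreted IgA and IgM, and Xbp1, a regulator of secretion, summed to 1289 in the WT, 1278 in the WT/FE, 2501 in the MA9 and 3040 in the MA9/FE macrophages. The 7 red cell markers, mostly globin genes and Car1, were in the same order as the Igkv sums among the macrophages, with 130 FPKM in the WT, 230 in the WT/FE, 408 in the MA9 and 585 in the MA9/FE macrophages, but stood at 426 and 162 FPKM in the MA9 and MA9/FE leukemia cells, where Igkv was low. The 14 macrophage markers were above 0 in all 4 macrophage libraries and summed to 779 FPKM in the WT, 1239 in the WT/FE, 872 in the MA9 and 1641 in the MA9/FE macrophages, higher in both libraries with iron. This list did not set macrophages apart. It summed to 1260 and 1597 FPKM in the MA9 and MA9/FE leukemia cells, most of it Lyz2 at 1017 and 1348 FPKM. Igkv RNA was thus higher in the MA9 than in the WT macrophages while the summed B cell markers were lower and the summed plasma cell markers were higher. In the leukemia cells the B cell markers summed to 24.4 and 23.9 FPKM, most of it Cd79b at 17.3 and 16.4 FPKM, and Jchain was at 2.63 and 4.63 FPKM. What part such cells had in the Igkv values was not tested, and in bulk RNA fewer cells of a type and less RNA per cell cannot be told apart.

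**Figure D1:**
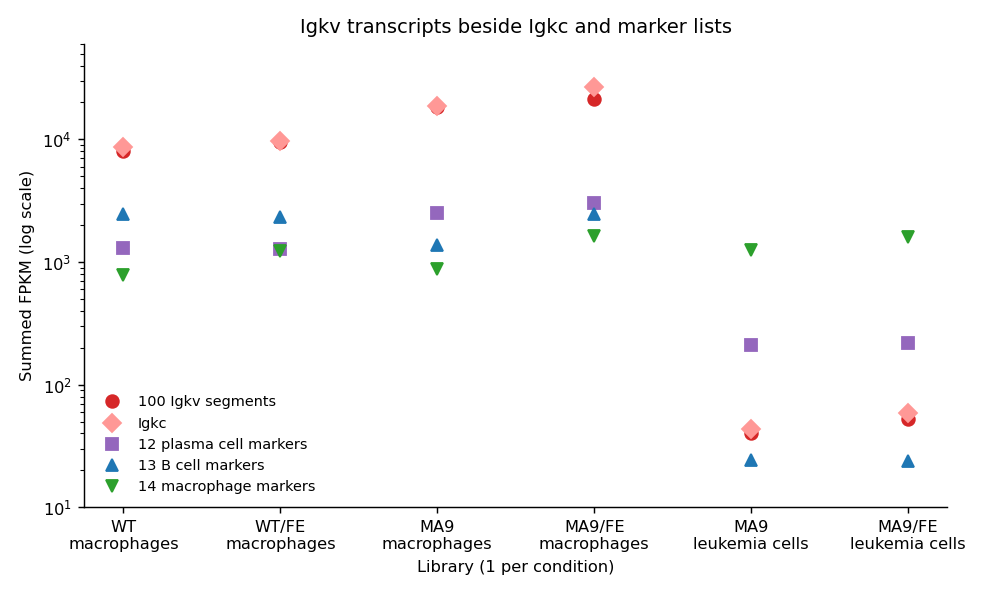
Summed FPKM on a log axis for the 100 Igkv segments, Igkc and 3 marker lists in each of the 6 libraries, 1 point per library. The Igkv sum runs from 8041 to 21477 FPKM in macrophages and lies at 40.4 and 52.9 FPKM in leukemia cells, next to Igkc throughout.

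Usage was broad in the macrophages. With FPKM above 0, 98 segments were found in the WT, 97 in the WT/FE, 98 in the MA9 and 98 in the MA9/FE macrophages. Igkv1-131 and Igkv1-35 were at 0 in all 6 libraries, and Igkv20-101-2 was at 0 in the WT/FE macrophages and held 2 to 15 reads in the other macrophage libraries. At least 10 reads were found for 92, 91, 95 and 95 segments, and at least 1000 reads for 14, 22, 37 and 41, for WT, then WT/FE, then MA9, then MA9/FE. The 60 Igkv pseudogenes together held only 0.249% to 0.584% of the Igkv level in macrophages and were at 0 in both leukemia libraries.

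The concentration of usage differed between libraries (see the cumulative plot). The 10 highest segments took 47.2% of usage in the WT, 38.7% in the WT/FE, 39.0% in the MA9 and 42.3% in the MA9/FE macrophages. It took 12 segments to reach 50% of usage in the WT macrophages and 15, 15 and 14 in the others, in the same order. The effective number of segments, the inverse of the summed squared shares, was 29.0 in the WT, 41.3 in the WT/FE, 40.0 in the MA9 and 34.7 in the MA9/FE macrophages. The WT library had the lowest effective number of the 4. Without its leading segment Igkv1-135 the value was 34.2. The 50 lowest segments took 8.03% to 10.03% of usage in the 4 libraries. For the heavy chain V genes (Ighv, 113 genes), measured the same way, the WT macrophages also had the lowest effective number at 21.9, against 38.2 in the WT/FE, 34.6 in the MA9 and 38.7 in the MA9/FE macrophages.

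**Figure D2:**
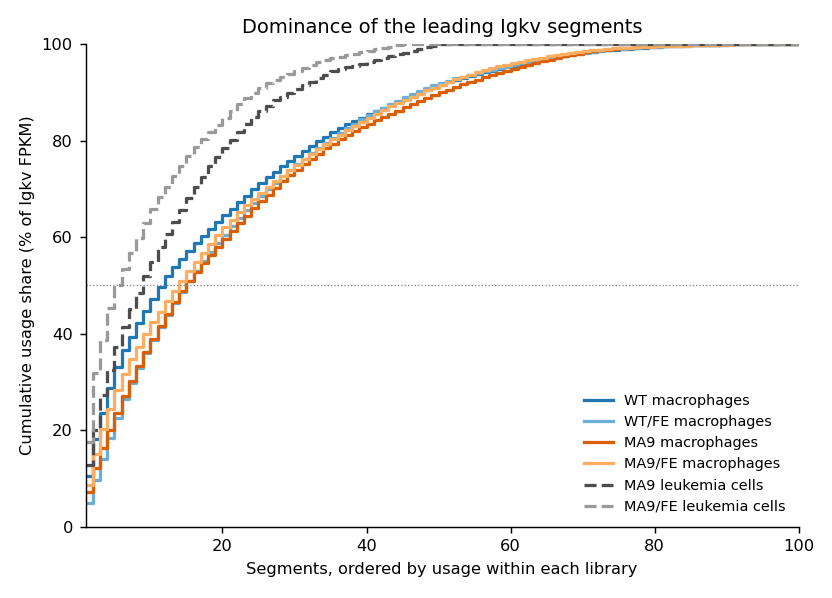
Cumulative usage share in percent of Igkv FPKM against the number of segments, ordered from highest to lowest within each library, with solid lines for macrophages and dashed lines for leukemia cells. The dotted line marks 50% of usage, which takes 12 to 15 segments in macrophages and 9 and 5 in the MA9 and MA9/FE leukemia cells.

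Igkv1-135 led the WT macrophages and none of the others. Its usage was 10.6% in the WT, 3.01% in the WT/FE, 2.53% in the MA9 and 2.97% in the MA9/FE macrophages, from 6539, 1897, 3088 and 4046 reads. The WT value is apart from the 3 others, which lie close together, and its read share of 11.2% (95% Wilson interval 11.0 to 11.5) does not overlap that of Igkv1-117, the next in order, at 8.30% (8.08 to 8.53). These intervals cover counting error only and not the difference between mice.

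Igkv1-117 was among the 2 highest segments of all 4 macrophage libraries. Its usage was 7.64% in the WT, 4.79% in the WT/FE, 7.25% in the MA9 and 8.65% in the MA9/FE macrophages, at FPKM of 615, 457, 1323 and 1857. Per length it ranked 2 in both libraries without leukemia and 1 in both with leukemia. By reads it led the WT/FE macrophages too, at 5.24%. Igkv6-23, at 2.73%, 4.19%, 3.52% and 3.83%, was the only other segment among the 10 highest of all 4. In all, 21 segments were among the 10 highest of at least 1 macrophage library, and 9 of these were there in only 1 library.

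Igkv5-39 was the highest segment of the WT/FE macrophages per length, at 4.87% of usage and 464 FPKM. In the WT macrophages it stood at 1.02%, in the MA9 at 1.24% and in the MA9/FE at 3.43%, so both libraries with iron lay above both without. The order at the top of the WT/FE library was not settled. Igkv1-117 had more reads there (3100 against 2707) but a longer transcript, and the read share of Igkv5-39 of 4.57% (4.41 to 4.74) overlapped that of the third segment, Igkv6-17, at 4.54% (4.38 to 4.71).

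**Figure D3:**
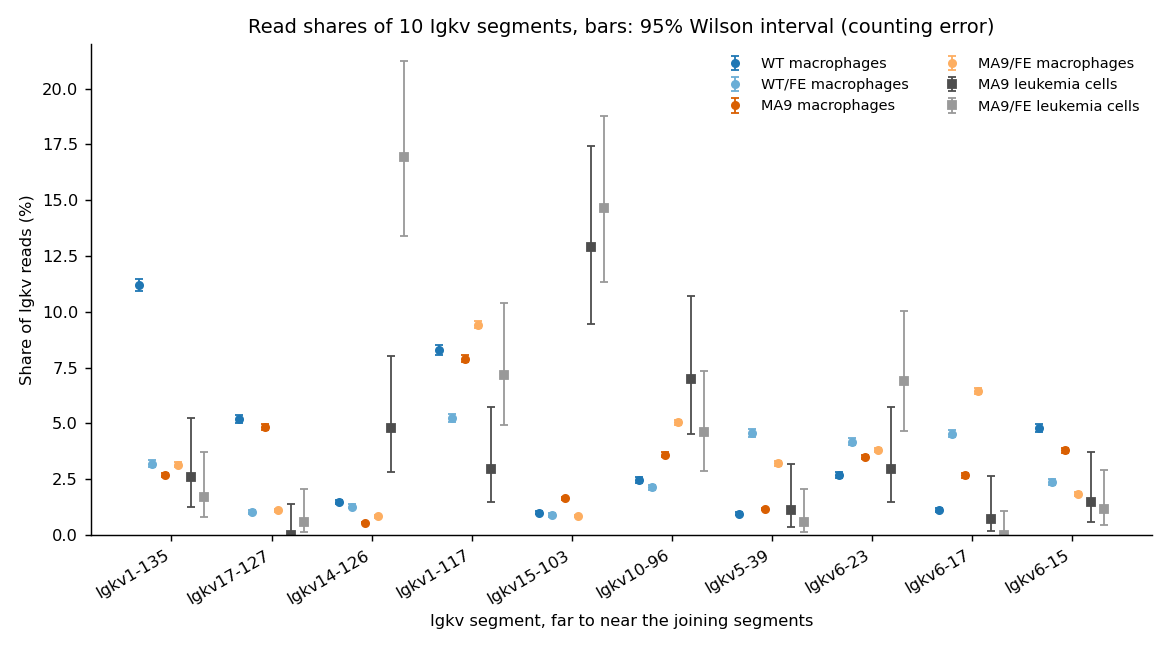
Share of Igkv reads in percent for 10 segments in each of the 6 libraries, ordered from far from to near the joining segments, with bars for the 95% Wilson interval, which covers counting error only. Igkv1-135 is apart in the WT macrophages at 11.2%, Igkv5-39 and Igkv6-17 are higher in both macrophage libraries with iron, and Igkv15-103 and Igkv14-126 are higher in leukemia cells than in any macrophage library.

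Shares varied between the macrophage libraries for most segments. Among the 65 segments with at least 100 reads in all 4 macrophage libraries, the highest share was 2.40 times the lowest at the median. This ratio was under 1.5 for 4 segments, from 1.5 to 2 for 14, from 2 to 5 for 41 and at least 5 for 6. The steadiest was Igkv10-94, with usage of 1.44%, 1.84%, 1.603% and 1.66% in WT, then WT/FE, then MA9, then MA9/FE macrophages. The most variable was Igkv1-122, with 0.361%, 0.240%, 1.85% and 0.212%, a range of 8.70 times that the MA9 library made. At the other end, 14 segments stayed under 0.1% in all 4 libraries, and 22 stayed above 1% in all 4.

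The segments lie over 3166 kb to 18.4 kb from Igkj1, the first J segment. Cut into 4 groups of 25 segments by position, the group farthest from Igkj1 took 42.8% of usage in the WT, 23.0% in the WT/FE, 35.5% in the MA9 and 27.5% in the MA9/FE macrophages. Both libraries with iron lay below both without. The third group, from 1306 kb to 606 kb, ran the other way, with 16.03%, 26.8%, 18.7% and 22.8%. The second group had 13.8%, 18.7%, 16.9% and 20.98%, and the nearest group 27.4%, 31.4%, 28.9% and 28.7%. Without a second library per condition, none of these differences can be set against the spread between mice.

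The orientation of the segments showed the same split between libraries. The 62 segments on the minus strand, which are joined by inversion, took 50.3% of usage in the WT, 60.0% in the WT/FE, 49.5% in the MA9 and 57.8% in the MA9/FE macrophages. The position groups and the strands share members, so these are not separate observations.

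By family, the number before the hyphen in the symbol, which groups segments of related sequence, the 10 Igkv1 segments took 22.6% in the WT, 11.1% in the WT/FE, 14.4% in the MA9 and 14.2% in the MA9/FE macrophages. The WT value holds Igkv1-135 at 10.6%. The 26 Igkv4 segments, the largest family, took 11.96%, 17.9%, 12.2% and 14.9%, and the 9 Igkv6 segments 11.5%, 15.1%, 15.3% and 15.4%. The 9 Igkv3 segments, which lie next to the J segments, took 4.95%, 12.3%, 10.2% and 8.57%. The Igkv17 family, made of the near-identical Igkv17-127 and Igkv17-121, took 6.66% and 8.01% without iron, in the WT and MA9 macrophages, and 1.83% and 2.12% with iron, in the WT/FE and MA9/FE macrophages.

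**Figure D4:**
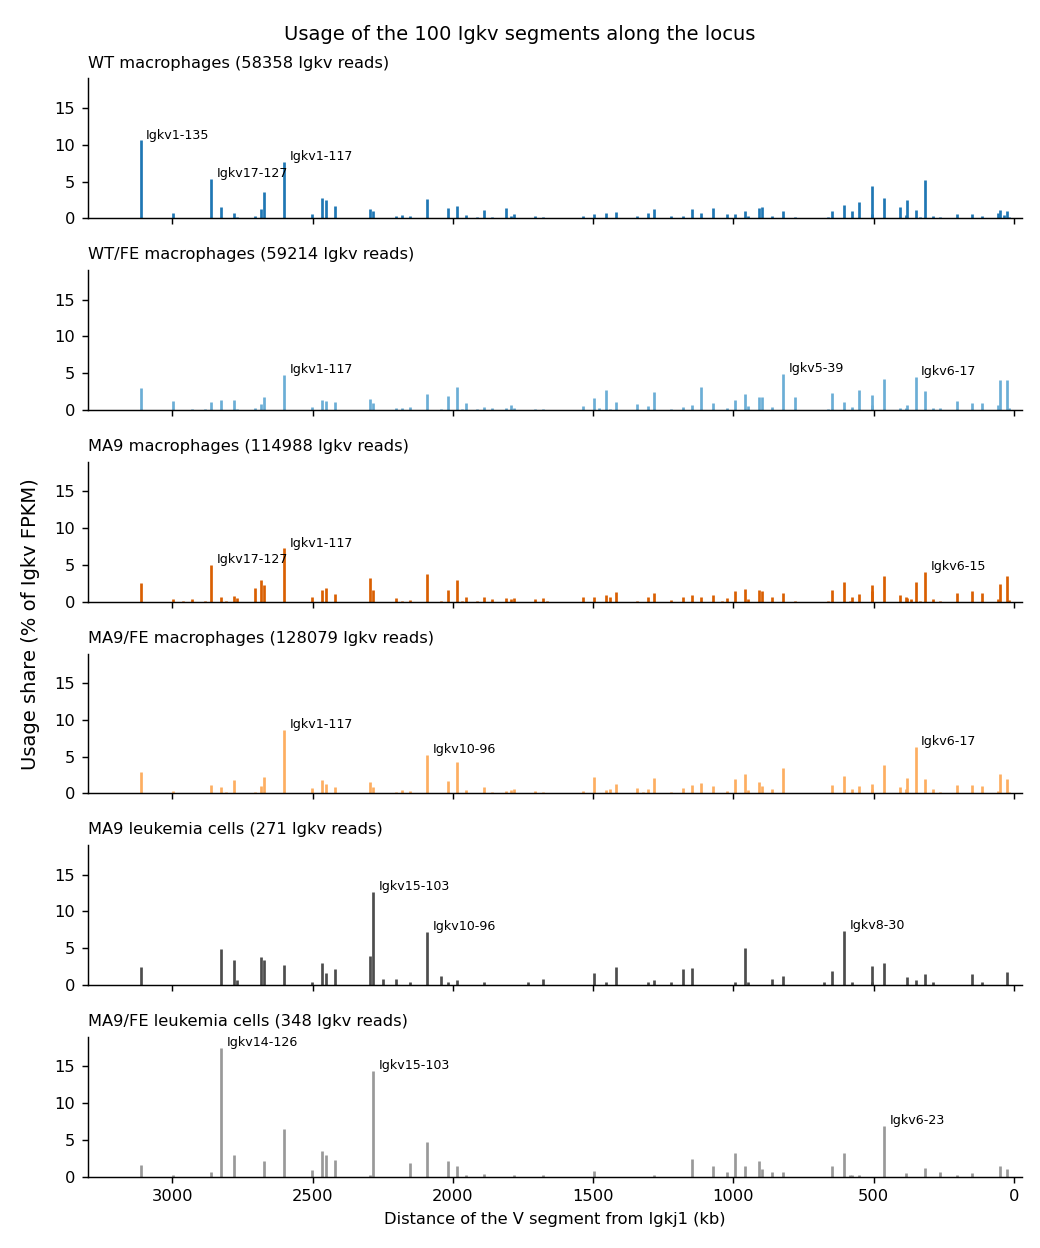
Usage share in percent of Igkv FPKM for each of the 100 segments against its distance in kb from Igkj1, 1 panel per library, with the 3 highest segments named. The group of 25 segments farthest from Igkj1 takes 42.8% and 35.5% in the macrophages without iron against 23.0% and 27.5% in those with iron, and usage in the leukemia cells, from 271 and 348 reads, is carried by a few segments.

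Usage overlap, the sum over segments of the lower of the shares in 2 libraries, placed the 4 macrophage libraries between 64.1% and 78.5% of each other. WT and WT/FE macrophages overlapped least, at 64.1%, and shared 3 of their 10 highest segments. The WT/FE and the MA9/FE macrophages overlapped most, at 78.5%, with 7 of 10 shared, close to the pair of libraries from leukemic mice at 78.1% with 5 of 10. WT and MA9 macrophages overlapped by 73.3%. Each of these pairs rests on 1 library a side.

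With iron and without leukemia the Igkv sum was 1.19 times that without iron, while single segments differed both ways. Among the 94 segments with at least 10 reads in 1 of the 2 libraries, 28 were at least 2-fold higher and 11 at least 2-fold lower in the WT/FE than in the WT macrophages, on log2(FPKM + 1) after TMM scaling over all genes. Of all 16754 genes tested, 1.27% passed that fold, 0.728% higher and 0.543% lower. The median log2 difference of the 94 segments was 0.17, and that of all genes -0.01. Of 98 Ighv genes that passed the filter, 27 were higher and 14 lower. With the Igkv sums made equal, 24 segments were higher and 18 lower, and 1.40% of all genes passed the fold under that scaling. Other genes of the pathway were taken from a list. Of the 17 genes of a light chain formation list (Rag genes, surrogate light chain, Igkc, Igkj and lambda genes) that passed the filter, out of 22, none were higher and 2 were lower, Iglv2 at -1.03 and Iglj3 at -1.29 on the log2 scale.

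The largest differences upward in share in that comparison were those of Igkv5-39, Igkv6-17 and Igkv3-4. Igkv6-17 had 663 reads and 1.12% of usage in the WT against 2689 reads and 4.45% in the WT/FE macrophages, a log2 difference of 2.22. Igkv3-4 had 1.07% against 4.13%. The largest downward were those of Igkv1-135, with a log2 difference of -1.57, Igkv17-127 and Igkv1-117. Igkv17-127 had 3031 reads and 5.38% of usage in the WT against 615 reads and 1.07% in the WT/FE macrophages. The largest folds fell on segments of lower usage. Igkv12-38 had 82 reads in the WT and 973 in the WT/FE macrophages (log2 difference 3.67), and Igkv3-3 had 268 and 4 reads (log2 difference -4.56). Igkv4-71 had 1 read in the WT and 135 in the WT/FE macrophages, a ratio of 157 at equal library size with a 95% counting interval from 27.7 to 6241.

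With iron in leukemic mice the counts were smaller. In the MA9/FE against the MA9 macrophages, 17 of 97 segments that passed the filter were higher and 10 lower, and 2.46% of all 16512 genes passed the fold, 1.20% higher and 1.26% lower. The median log2 difference was 0.27 for the segments and 0.01 for all genes. Of 99 Ighv genes that passed the filter, 16 were higher and 23 lower. Their sum was 17388 FPKM in the MA9 and 15469 FPKM in the MA9/FE macrophages, the reverse of the order of the Igkv sums. Whether the effect of iron differed between mice with and without leukemia was not tested. With the Igkv sums made equal, 15 segments were higher and 12 lower, and 3.1% of all genes passed the fold under that scaling. Igkv6-17 had the largest difference upward in share, with 3070 reads and 2.62% of usage in the MA9 and 8280 reads and 6.36% in the MA9/FE macrophages. Igkv17-127 had the largest downward, with 5563 reads and 4.99% against 1416 reads and 1.14%. Igkv4-62 (11 and 157 reads), Igkv1-99 (94 and 643) and Igkv4-63 (163 and 963) had the largest folds upward among segments with at least 100 reads in 1 of the 2 libraries. Below that limit Igkv4-71 (2 and 73 reads) had a slightly larger fold. Igkv8-18 (385 and 23 reads), Igkv9-123 (565 and 38) and Igkv14-130 (456 and 50) had the largest downward. On the same list of light chain formation genes, 2 of 19 were higher, Iglc2 and Iglv2, and none lower. Of the 13 B cell markers, 2 were higher, Cd79b at 1.11 and Fcmr at 1.17, none were lower, and all 13 were above 0, with a median of 0.64. Of the 12 plasma cell markers none passed the fold. In mice without leukemia neither list had a gene past the fold with iron.

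The 2 iron comparisons share no library, and 16 segments passed the fold in both. Of these, 12 differed in the same direction. In both, 10 were higher with iron, namely Igkv12-38, Igkv4-55, Igkv4-59, Igkv4-62, Igkv4-63, Igkv4-71, Igkv4-72, Igkv5-39, Igkv6-17 and Igkv9-124, and Igkv17-127 and Igkv8-18 were lower. The other 4, Igkv14-130, Igkv3-3, Igkv5-37 and Igkv8-19, differed in opposite directions. Among the 94 segments that passed the filter in both comparisons, the 16 are 41.0% of the 39 past the fold in mice without leukemia and 61.5% of the 26 in leukemic mice. Across the 94, the log2 differences correlated only weakly (Pearson r 0.21, Spearman rho 0.19, over segments, which are not independent replicates). These are descriptions with no test. How many of all genes passed the fold in both comparisons was not computed. The 16 and the 12 therefore have no background to be set against.

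The 10 segments higher with iron in both comparisons took 5.86% of usage in the WT, 20.8% in the WT/FE, 7.28% in the MA9 and 18.4% in the MA9/FE macrophages. These segments were chosen for being higher with iron, so the direction of these sums and of their shares only restates that choice. Of the 10, 9 lie on the minus strand, where 62 of all 100 segments lie, and 6 belong to the Igkv4 family, which holds 26 of the 100. Those 6 lie between 1115 kb and 1496 kb from Igkj1, a stretch that holds 13 of the 100 segments. The outermost of the 6 set the ends of that stretch, so this count is no measure of clustering. Igkv4-72, one of those with many reads, had 370 reads in the WT, 1074 in the WT/FE, 807 in the MA9 and 3001 in the MA9/FE macrophages and usage of 0.586%, 1.67%, 0.647% and 2.16%.

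**Figure D5:**
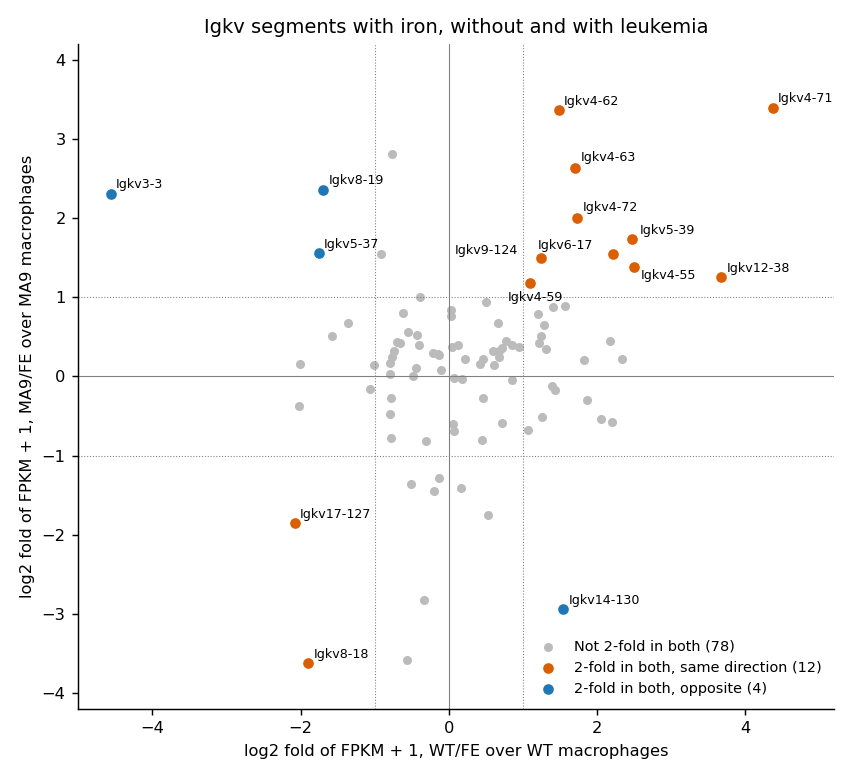
Log2 difference of each Igkv segment in FPKM + 1 with iron, in mice without leukemia on the horizontal axis and in leukemic mice on the vertical axis, for the 94 segments with at least 10 reads in 1 library of each pair. Dotted lines mark a 2-fold difference, and 12 segments pass it in both comparisons in the same direction and 4 in opposite directions.

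In leukemic mice the macrophage libraries held more RNA of most segments. In the MA9 against the WT macrophages, 57 of 95 segments that passed the filter were at least 2-fold higher and 4 at least 2-fold lower, where 4.70% of all 16926 genes passed the fold, 3.79% higher and 0.910% lower. The median log2 difference of the segments was 1.32, and 82 of the 95 were above 0. Of 99 Ighv genes that passed the filter, 67 were higher and 3 lower. With the Igkv sums made equal, 18 segments were higher and 14 lower, and 41.3% of all genes passed the fold under that scaling. Igkv3-2 had the largest difference upward in share, with 618 reads and 1.04% of usage in the WT and 4144 reads and 3.53% in the MA9 macrophages, and Igkv16-104 and Igkv17-121 followed. Igkv1-135 had the largest downward, with 10.6% against 2.53%. Igkv14-130 had the largest fold, with 17 reads in the WT and 456 in the MA9 macrophages. Igkv3-3 had the largest fold downward, with 268 and 13 reads.

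In leukemic mice given iron the counts were close to these. In the MA9/FE against the WT/FE macrophages, 56 of 96 segments were higher and 4 lower, where 4.57% of all 16571 genes passed the fold, 2.93% higher and 1.64% lower. The median log2 difference of the segments was 1.15, against 0.01 for all genes. Of 97 Ighv genes that passed the filter, 43 were higher and 3 lower. With the Igkv sums made equal, 13 segments were higher and 14 lower, and 37.0% of all genes passed the fold under that scaling. Igkv1-117 had the largest difference upward in share, with 3100 reads and 4.79% of usage in the WT/FE and 12070 reads and 8.65% in the MA9/FE macrophages. Igkv10-96 came next, with 1268 reads and 2.204% against 6474 reads and 5.22%. Igkv4-70 had the largest downward, with 1691 reads and 2.78% against 667 reads and 0.509%. Igkv12-38, which was high in the WT/FE macrophages, had 973 reads there and 91 in the MA9/FE macrophages.

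Of the light chain formation list, 2 of 19 genes that passed the filter were at least 2-fold higher in the MA9 than in the WT macrophages, Igkc and Rag1, and none lower. In the MA9/FE against the WT/FE macrophages 5 of 17 were higher, Igkc and the lambda genes Iglv1, Iglv2, Iglc1 and Iglj1, and none lower. Igkc was higher by 1.11 on the log2 scale in the MA9 than in the WT macrophages and by 1.47 in the MA9/FE than in the WT/FE macrophages. Of the 12 plasma cell markers, 6 were at least 2-fold higher in the first comparison and 5 in the second, with Jchain at 1.09 and 1.51, and none were lower. The medians of the 12 were 0.9995 and 0.953, and the lowest values were those of Tnfrsf13b at -0.27 in the first and Irf4 at 0.07 in the second. Of 13 B cell markers, none were higher in either, and Fcer2a (-1.36) and Fcmr (-1.16) were lower in the first. Of the 8 heavy chain constant genes, 3 were higher (Ighg2c, Ighg2b and Igha) and 1 lower (Ighd at -1.41) in the first, and 5 higher and none lower in the second. The gene with the largest difference in the first, Ighg2c, the constant gene of an IgG class that C57BL/6 mice use, stood at 158 FPKM in the WT, 917 in the WT/FE, 4388 in the MA9 and 4253 in the MA9/FE macrophages. The 7 neutrophil markers, at 5.73 and 4.15 FPKM in sum in the WT and WT/FE macrophages, were at 1835 in the MA9 and 929 in the MA9/FE macrophages. They summed to 5200 and 4093 FPKM in the MA9 and MA9/FE leukemia cells, so this list did not set neutrophils apart from leukemia cells. The part of the cells behind these lists in the Igkv values was not tested.

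The leukemia cells held few Igkv reads. In the MA9 leukemia cells 50 segments had at least 1 read and 7 had at least 10, and in the MA9/FE leukemia cells 45 and 10. At 271 reads, the number in the smaller library, between 62.2 and 64.2 segments would be expected from the macrophage libraries and 42.2 from the MA9/FE leukemia cells. A segment with 0 reads may still hold a share of up to 1.11% of the 271 reads or 0.862% of the 348 reads. The number seen in both leukemia libraries was below what the macrophage libraries give at this depth. Per length, the effective number was 21.8 and 13.8. Few reads lower that number by construction, and computed from reads with a correction for how many were drawn it was 23.5 in the MA9 and 14.4 in the MA9/FE leukemia cells, against 27.7 in the WT macrophages, the lowest of the macrophage libraries.

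Igkv15-103 and Igkv14-126 stood out in these reads, and they were singled out after their values were seen. Igkv15-103 had 35 of 271 reads in the MA9 leukemia cells, 12.9% (95% Wilson interval 9.43 to 17.4), and 51 of 348 in the MA9/FE leukemia cells, 14.7% (11.3 to 18.8). In the macrophages its usage was 0.997% in the WT, 0.887% in the WT/FE, 1.62% in the MA9 and 0.830% in the MA9/FE. Igkv14-126 had 13 reads in the MA9 leukemia cells, 4.797% (2.82 to 8.03), and 59 in the MA9/FE leukemia cells, 17.0% (13.4 to 21.3), against usage of 1.53%, 1.32%, 0.581% and 0.862% in the macrophages. The shares of both in leukemia cells lie above every macrophage share.

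The other Igkv reads of the leukemia cells ran lower against the macrophages. Scaled to library size, the reads of all segments together stood at 0.221% of the MA9 macrophages in the MA9 leukemia cells and at 0.245% of the MA9/FE macrophages in the MA9/FE leukemia cells. Over segments with at least 100 macrophage reads, 76 and 75 of them, the median was 0.0873% and 0.0853%. Many of these segments held few or no leukemia reads, so these medians are coarse. Igkv14-126 stood at 1.89% and 4.99%, and Igkv15-103 at 1.73% and 4.27%, the highest and second highest of the segments in both pairs. Together these 2 made up 48 of 271 and 110 of 348 reads, which leaves 223 and 238 reads for all others. Igkv1-117, which led the macrophages of leukemic mice, had 8 and 25 reads in the leukemia cells, and Igkv1-135 had 7 and 6.

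Order in the leukemia libraries is loose at this depth. After Igkv15-103 the MA9 leukemia cells had Igkv8-30 with 20 reads (7.38%, 4.83 to 11.1) and Igkv10-96 with 19 reads, and the interval of Igkv8-30 overlapped that of Igkv15-103. In the MA9/FE leukemia cells Igkv14-126 and Igkv15-103 overlapped each other, and both lay above the third by reads, Igkv1-117 with 25 reads (7.18%, 4.91 to 10.4). Usage overlap between the leukemia libraries was 58.6%, and each leukemia library overlapped the macrophages of the same treatment by 54.0% without iron and 52.8% with iron. Such overlaps are lowered by few reads. In the MA9/FE against the MA9 leukemia cells, 13 segments passed the filter, 4 were at least 2-fold higher and 2 lower, and 0.863% of all 15415 genes passed the fold, 0.435% higher and 0.428% lower. Igkv14-126 had the largest difference at 1.77 on the log2 scale. With the Igkv sums made equal, 2 segments were higher and 3 lower, and 1.20% of all genes passed the fold under that scaling.

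The J segments and the recombination genes gave little beside this. Igkj1 to Igkj5, exons of 38 to 43 bases, were listed at 137 to 650 reads each in the WT macrophages, and Igkj1 had the fewest reads and the lowest FPKM of the 5 in all 4 macrophage libraries. In the leukemia cells the 5 together held 7 and 2 reads. Rag1 and Rag2, which cut the DNA during joining, were at most 1.73 FPKM in any library, and Vpreb1 and Igll1, the surrogate light chain of precursor B cells, at most 0.951 FPKM.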

How the data were processed

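Total RNA of sorted macrophages and leukemia cells was sequenced on an Illumina NovaSeq, 1 library per condition. The authors deposited FPKM values for 54532 genes by Ensembl identifier, and per the labels they used Bowtie2 2.2.5 and RSEM on mm10. Groups were taken from the sample labels. FPKM values multiplied by the GENCODE M21 exon length step in whole reads (96.8% to 97.0% of values above 0 within 0.05 reads, and all Igkv values), although the notes name RSEM. The read length and the treatment of reads that match several segments are not given in the sources used here. Usage shares, effective numbers and overlaps were computed per library with Python 3.11.15, pandas 2.3.3 and scipy 1.17.1, identities with edlib 1.3.9.post1. Folds were taken on log2(FPKM + 1) after TMM scaling, for genes with at least 10 reads in 1 library, and understate differences of low genes. With 1 library per condition no test was made, and intervals cover counting error only. Reads without molecular identifiers are not independent molecules. The fold script was tested on simulated data. Segments were named if among the 5 highest of a library, if they led any library, or if among the 3 largest differences in share or fold each way with at least 100 reads. Others are named where the text gives the rule. A listed B cell marker is not reported here. Members and lists were chosen with earlier results of these data known. Alternatives were other units, scalings, minimum reads and pseudocounts, merged near-identical segments, pseudogenes in the denominator and leading segments left out.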

Additional observations from a re-analysis of the deposited data

Results flagged for a closer look

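In 4 segments the difference with iron had opposite signs in mice without and with leukemia, at least 2-fold each way, with 1 library a side. The difference between the 2 iron comparisons was not tested. Igkv14-130 differed by 1.54 on the log2 scale in mice without leukemia (17 reads in the WT and 54 in the WT/FE macrophages) and by -2.94 in leukemic mice (456 and 50 reads). Igkv3-3 differed by -4.56 (268 and 4 reads) and by 2.31 (13 and 82 reads). Igkv5-37 differed by -1.76 (44 and 7 reads) and by 1.56 (21 and 68 reads). Igkv8-19, a near-identical relative of Igkv8-28, differed by -1.70 (1453 and 382 reads) and by 2.36 (564 and 2692 reads). Of the 4, Igkv8-19 was the one with the most reads, and its usage was 2.502% in the WT, 0.644% in the WT/FE, 0.491% in the MA9 and 2.11% in the MA9/FE macrophages.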

How the results depend on the processing

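With 1 library per condition, a difference between conditions cannot be told apart from a difference between mice or sorts. Single values of the 12 near-identical segments are uncertain, and those of other segments that share stretches with relatives may be. The leukemia libraries rest on 271 and 348 Igkv reads. No paired analysis was possible because only a single library stands for each condition, and for the same reason none could be left out. Of 232 values under alternatives, 161 stayed within counting error (for counts of segments, within 1.5 times), and the 71 others follow, macrophages first (WT, then WT/FE, then MA9, then MA9/FE) unless named. The cause was not tested beyond what each alternative does.

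On reads in place of FPKM, the Igkv share of the library was 0.299%, 0.352%, 0.676%, 0.796%, and 0.00149% and 0.00195% in the MA9 and MA9/FE leukemia cells. The leading share was 11.2%, 5.24% (then Igkv1-117), 7.90% and 9.42%. The 10 highest took 47.7% in the WT, 39.2% in the WT/FE and 42.8% in the MA9/FE macrophages. The effective number was 27.7, 40.9, 39.0 and 33.4, the Igkv1 share 24.1%, 11.8%, 15.4% and 15.3%, and the Igkv to Igkc ratio 0.647, 0.682, 0.685, 0.563, and 0.650 and 0.618 in the leukemia cells. Without mitochondrial and hemoglobin genes, the share of all FPKM was 2.02%, 2.65%, 4.79% and 4.15%.

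With near-identical segments merged, Igkv17-127 with Igkv17-121 led the MA9 macrophages at 8.01%, the 10 highest took 49.5% in the WT and 41.6% in the MA9 macrophages, and the effective number was 27.3, 40.4, 35.3 and 34.0. The overlap of WT with MA9 macrophages was 74.1% and with MA9/FE macrophages 68.8%. With pseudogenes in the denominator the effective number of the WT/FE macrophages was 41.8.

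Without the leading segment, the 10 highest took 43.7% in the WT, 37.0% in the MA9 and 39.3% in the MA9/FE macrophages, and the effective number was 34.2, 43.5 and 39.1 there. The overlap of WT with WT/FE macrophages was 66.5%, of WT with MA9 74.1%, of WT/FE with MA9 73.2% and of MA9 with MA9/FE 76.9%.

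Counting only segments with at least 10 reads, the leading share was 28.2% in the MA9 and 26.5% in the MA9/FE leukemia cells, the 10 highest took 100% in both, the effective number was 5.83 and 6.41, and the Igkv1 share of the MA9 leukemia cells was 0%. The overlap with the macrophages of the same treatment was then 16.6% and 28.7%, and between the leukemia libraries 44.9%. At least 1 read was found for 50 and 45 segments in the leukemia cells, and at least 50 reads for 0 and 2.

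Leaving out Igkv14-126 and Igkv15-103, an alternative chosen after seeing the data, gave an overlap of 60.8% between MA9/FE leukemia cells and macrophages and of 63.3% between WT and WT/FE macrophages.

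With the Igkv sums made equal, 32 segments passed the 2-fold difference in the MA9 against the WT macrophages and 27 in the MA9/FE against the WT/FE macrophages. Of all genes, 41.3% and 37.0% passed under that scaling. In the leukemia comparison, a minimum of 50 reads and a counting-noise test on reads each left 1 segment. The other scalings, minimums and pseudocount kept the counts within 1.5 times.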
